A study of Homo sapiens with 6 samples.

Results

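Mucins are large glycoproteins that cover and protect epithelial surfaces. The secreted, gel-forming mucins polymerise into mucus, whereas the membrane mucins stay anchored in the apical membrane of epithelial cells and form a glycocalyx. In the intestine, MUC2 is the gel-forming mucin of goblet cells, and MUC3A, MUC12, MUC13 and MUC17 are membrane mucins of the absorptive epithelium. The genes described here are the 4 secreted mucin genes MUC6, MUC2, MUC5AC and MUC5B, which lie side by side on chromosome 11, and 5 membrane mucin genes, of which MUC3A, MUC12 and MUC17 are neighbours on chromosome 7 and MUC13 and MUC4 lie apart on chromosome 3. Their bins were taken by gene position on the human build hg19. With 100 kb on each side, they make up 4 loci of 70 bins of 20 kb, out of 140474 bins shared by the deposited tracks. The secreted cluster holds 25 of these bins and the membrane loci hold 45.

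The measurements come from Hi-C, which joins and sequences DNA ends that lie close together in the nucleus, in the colorectal cancer cell line HCT116, which is human and long established, and in DKO1, made from HCT116 by knocking out DNMT1 and DNMT3B. DNMT1 copies DNA methylation to new strands at replication and DNMT3B adds it de novo, so that DKO1 is known to have lost most of its CpG methylation. There are 3 libraries per line, 6 in all, untreated and grown in the same medium. The labels name the same files for all 3 libraries of a line, so each line has 1 pooled compartment score per bin and 1 list of domains, with no replicate error and no test between the lines. DKO1 is 1 derived line, and no expression was measured in these files, so neither the cell type nor the activity of the mucin genes could be checked.

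The compartment score PC1 is the first principal component of the contact map. Positive values mark compartment A, which is generally open and gene-rich, and negative values mark compartment B, which is generally closed. The deposited scores have a mean of 0 and an SD of 1 on each chromosome, so 1 unit is 1 SD of that chromosome in that line. An SD given with a mean below is the spread over neighbouring bins, which are not replicates. Positions are hg19, and the positions of genes were used to the nearest 10 kb.

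DKO1 differs from HCT116 in the methylation of CpG dinucleotides, and the promoters of the secreted mucin MUC2 and of the 3 chromosome 7 mucins are printed to show how many of these they carry. Each sequence is the 250 bases upstream of the start of the gene, 5′ to 3′ on the strand of the gene, with every CG in capitals. They are from RefSeq on build GRCh38.p14, a later build than that of the tracks, at chr11:1074624-1074873 (plus strand) for MUC2 and, all on the plus strand, at chr7:100949284-100949533 for MUC3A, chr7:100969315-100969564 for MUC12 and chr7:101019831-101020080 for MUC17.
MUC2: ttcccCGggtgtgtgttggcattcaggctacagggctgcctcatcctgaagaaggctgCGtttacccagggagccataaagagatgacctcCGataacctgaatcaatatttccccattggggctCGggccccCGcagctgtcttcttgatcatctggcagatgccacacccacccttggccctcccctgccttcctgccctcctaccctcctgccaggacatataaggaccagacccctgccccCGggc
MUC3A: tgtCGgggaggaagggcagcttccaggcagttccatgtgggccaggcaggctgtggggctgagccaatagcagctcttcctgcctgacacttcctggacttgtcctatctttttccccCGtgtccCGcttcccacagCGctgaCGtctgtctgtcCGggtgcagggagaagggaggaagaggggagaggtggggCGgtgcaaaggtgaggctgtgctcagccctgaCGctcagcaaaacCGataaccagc
MUC12: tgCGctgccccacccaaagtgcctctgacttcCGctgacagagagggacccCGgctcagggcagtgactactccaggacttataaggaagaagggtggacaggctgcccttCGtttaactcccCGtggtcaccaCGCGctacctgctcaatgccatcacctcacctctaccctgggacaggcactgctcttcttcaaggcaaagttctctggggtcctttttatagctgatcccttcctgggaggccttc
MUC17: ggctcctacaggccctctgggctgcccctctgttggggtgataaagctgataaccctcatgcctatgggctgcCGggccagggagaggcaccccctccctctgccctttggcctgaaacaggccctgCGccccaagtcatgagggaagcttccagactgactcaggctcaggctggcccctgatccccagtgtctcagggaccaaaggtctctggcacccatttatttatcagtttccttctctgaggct

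MUC3A carried 9 CG, MUC12 7, MUC2 6 and MUC17 2, and of the other members listed, MUC4 carried 7 and MUC13 5. The motif CG reads the same on both strands. Of 35116 promoters in the table, 93.9% held it within the same length, with a median of 11. All 6 mucin promoters found in the table therefore had fewer CG than the median promoter. MUC6, MUC5AC and MUC5B were not among the entries. These counts describe the sequence only, and no methylation was measured in the files used here.

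All 4 loci had a positive mean score, the sign of compartment A, in both lines, and the clusters on chromosomes 11 and 7 had a higher score in DKO1. The secreted cluster went from 1.19 ± 0.152 (SD over 25 bins) in HCT116 to 1.66 ± 0.304 in DKO1. After a 10 Mb running mean was subtracted from each track, the difference of the secreted cluster was 0.171 in place of 0.47. Near the end of a chromosome this mean is cut short on 1 side, which holds for the secreted cluster and MUC4. The chromosome 7 membrane cluster, which was close to 0 in HCT116, went from 0.137 ± 0.0931 (19 bins) to 1.03 ± 0.302, and its difference was 0.759 in place of 0.896 after that subtraction. MUC4 went from 1.49 ± 0.166 (14 bins) to 1.66 ± 0.27, and MUC13 from 1.15 ± 0.15 (12 bins) to 1.07 ± 0.253. For MUC4 and MUC13 the difference was about as large as, or smaller than, its own spread over bins, so no change of level is claimed for either.

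In counts of bins, 69 of the 70 had a positive score in HCT116 and 70 in DKO1, and 57 of the 70 were higher in DKO1, as 50.6% of autosomal bins were. None of the bins went from A to B, a switch that 8.92% of autosomal bins made. The only bin to go from B to A, which 4.40% of autosomal bins did, was at 100540001 to 100560000 of chromosome 7 in MUC3A, with a score of -0.00957 in HCT116 and 0.6 in DKO1. The score was at least 0.5 higher in DKO1 in 32 of the 70 bins, where the autosomal share was 13.6%, and at least 0.5 lower in 0 of them, where it was 14.9%. Those 32 bins were 13 of the secreted cluster and all 19 of the chromosome 7 cluster. Bins of a cluster are neighbours and do not count as separate observations.

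**Figure D1:**
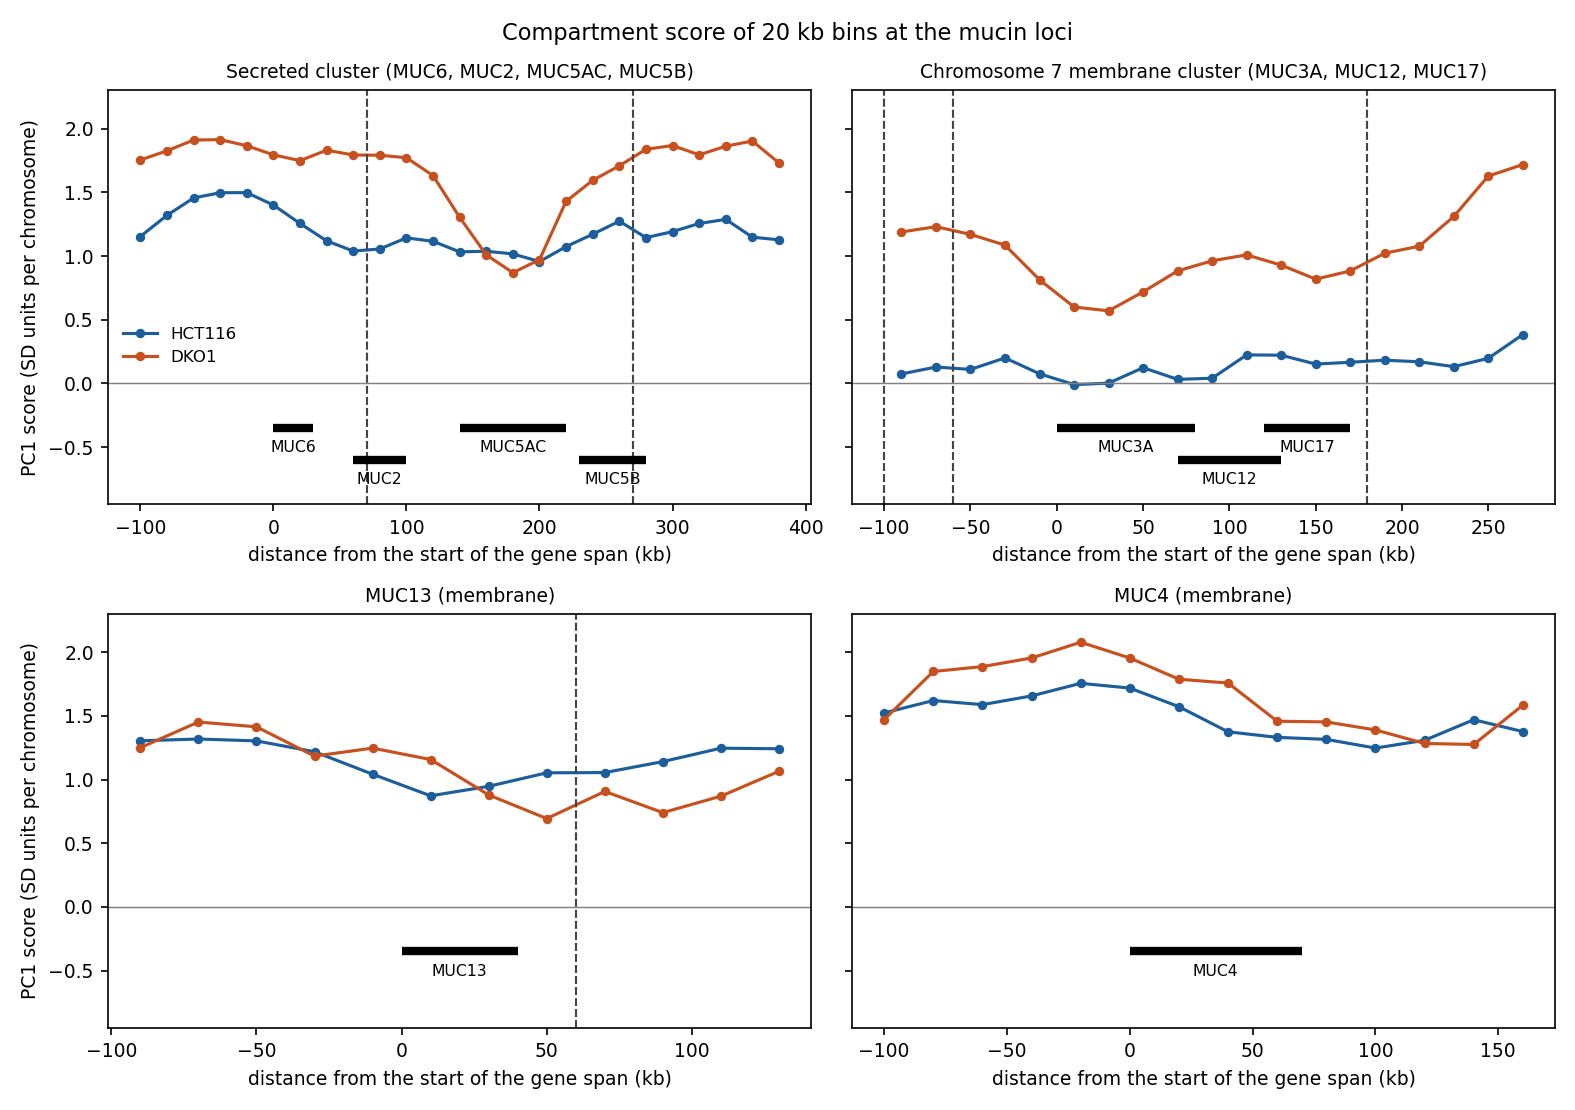
PC1 score (y axis, SD units of the chromosome) of each 20 kb bin against its distance from the start of the gene span (x axis, kb) at the 4 mucin loci in HCT116 and DKO1; black bars are genes, and dashed (HCT116) and dotted (DKO1) vertical lines are domain boundaries, which coincide wherever drawn. DKO1 lies above HCT116 in 23 of 25 bins of the secreted cluster and in all 19 bins of the chromosome 7 cluster, and both lines meet over MUC5AC.

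The secreted cluster was not uniform. MUC6, a mucin of gastric glands, had a mean over its own bins, 1000001 to 1040000, of 1.33 in HCT116 and 1.77 in DKO1. MUC2, the goblet cell mucin, went from 1.08 to 1.79 over its 3 bins at 1060001 to 1120000, a difference of 0.707. MUC5B, a gel-forming mucin of the airways, went from 1.2 to 1.71 over its 3 bins at 1240001 to 1300000, a difference of 0.517. Between MUC2 and MUC5B lies MUC5AC, the gel-forming mucin of the gastric surface, where the lines hardly differed. Its 5 bins had scores in HCT116 of 1.03, 1.04, 1.02, 0.957 and 1.07 in chromosome order, and in DKO1 of 1.3, 1.01, 0.869, 0.972 and 1.43. In DKO1 these bins form a trough whose lowest point was at 1180001 to 1200000. There DKO1 was also lowest relative to HCT116, with a difference of -0.148. As background, hg19 is known to leave a stretch of MUC5AC unresolved, and the part of that stretch in this trough was not tested.

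Over the MUC5AC bins the mean difference was 0.0932, with a range of -0.148 to 0.355. Over the other 20 bins of the secreted cluster it was 0.564, with a range of 0.368 to 0.755. The ranges came close, at 0.355 and 0.368, without overlapping. This split was made after the values were seen, and neighbouring bins are not separate observations, so the gap is no test. The 20 bins outside MUC5AC had a mean of 1.8 ± 0.0862 in DKO1 and of 1.23 ± 0.14 in HCT116. The smaller SD in DKO1 depends on leaving out the bins of the DKO1 trough. Over all 25 bins the order was the reverse, with an SD of 0.304 in DKO1 and 0.152 in HCT116. The bin of MUC2 at 1060001 to 1080000 and that at 1360001 to 1380000 beyond MUC5B had the largest differences of the cluster, 0.754 and 0.755. The lowest bins of HCT116 were in MUC5AC as well, but by a smaller margin.

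On chromosome 7, MUC3A, MUC12 and MUC17, which encode membrane mucins of the enterocyte brush border, all had higher scores in DKO1. MUC3A went from 0.0366 in HCT116 to 0.693 in DKO1 over its 4 bins. MUC12 went from 0.129 to 0.946 over 4 bins, of which it shares 1 with MUC3A and 1 with MUC17. MUC17 went from 0.18 to 0.877 over 3 bins. Each bin of the 3 genes was lower in HCT116 than any of them was in DKO1. The HCT116 scores of the whole locus ran from -0.00957 to 0.383, and the DKO1 scores from 0.57 to 1.72. The ranges of the lines did not overlap, but the share of other windows of this length without overlap was not counted. On chromosome 7 as a whole, 27.3% of bins were at least 0.5 higher in DKO1.

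MUC3A was the low point of its locus in both lines, as MUC5AC was in its own. In DKO1 its bins had a mean of 0.693, against 1.12 over the other 15 bins of the locus. Its difference between the lines was 0.656 against 0.96. This split too was made after the values were seen. As background, hg19 is known to leave stretches of both MUC5AC and MUC3A unresolved. No hg19 sequence was used here, and the part of such stretches in the low bins of these genes was not tested. Without the bins of MUC5AC the difference of the secreted cluster was 0.564 in place of 0.47, and without those of MUC3A the difference of the chromosome 7 cluster was 0.96 in place of 0.896.

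The single membrane mucins on chromosome 3 showed smaller and mixed differences. MUC4 is a membrane mucin with an ERBB2-binding subunit, and 11 of the 14 bins of its locus were higher in DKO1, with differences from -0.194 to 0.383. Over the 4 bins of the gene the score went from 1.5 to 1.74. MUC13, a membrane mucin abundant in the colon, had a score of 0.872 in HCT116 and 1.16 in DKO1 in the bin at 124620001 to 124640000, and of 0.947 and 0.879 in the next. The 6 bins from 124640001 to the end of its locus were all lower in DKO1, with differences from -0.0677 to -0.401, while 4 of the 6 before them were higher.

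The order of the loci differed between the lines. In HCT116 MUC4 had the highest mean, followed by the secreted cluster, MUC13 and the chromosome 7 cluster. The secreted cluster and MUC13 differed there by less than the spread over bins of either. In DKO1 the secreted cluster and MUC4 had almost the same mean, 1.661 and 1.656, and MUC13 and the chromosome 7 cluster, at 1.07 and 1.03, also lay closer than their spread. Since each chromosome was scaled on its own, levels on different chromosomes are comparable only in SD units.

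Secreted and membrane mucins did not separate by their difference between the lines. The secreted locus had a difference of 0.47, inside the range of the 3 membrane loci, which ran from -0.0736 to 0.896 with a mean of 0.329. Counting each gene once, with its own 100 kb on each side, reversed the order, since the secreted genes then had a mean of 0.445 and the membrane genes 0.514. With the chromosome 7 cluster left out, a choice made after the values were seen, the remaining membrane loci had a mean of 0.0462. The contrast was therefore larger among the membrane loci than between the classes.

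The differences were then ranked against every autosomal window of the same number of bins whose mean HCT116 score lay within 0.1 of that of the locus. These windows overlap one another, and the rank describes these maps and is no test. The secreted cluster stood above 94.0% of 9221 such windows, whose median difference was 0.0618. The chromosome 7 cluster stood above 99.1% of 7901 windows, whose median was -0.195, so that windows of this intermediate level mostly had lower scores in DKO1. MUC4 stood above 73.1% of 3366 windows and MUC13 above 33.8% of 10818, both inside the middle 90% of their windows.

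Within the same chromosome the order of the clusters turned: 4.28% of like windows lay above the chromosome 7 cluster, against 0.924% on all autosomes, and 3.67% above the secreted cluster, against 5.99%. The secreted cluster stood above 96.3% of 627 windows of chromosome 11 and the chromosome 7 cluster above 95.7% of 584 windows of chromosome 7. For chromosome 7 the spread of the windows was wide, with the middle 90% from -0.943 to 0.844. MUC4 stood above 77.9% of 456 windows and MUC13 above 35.8% of 718 windows of chromosome 3.

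**Figure D2:**
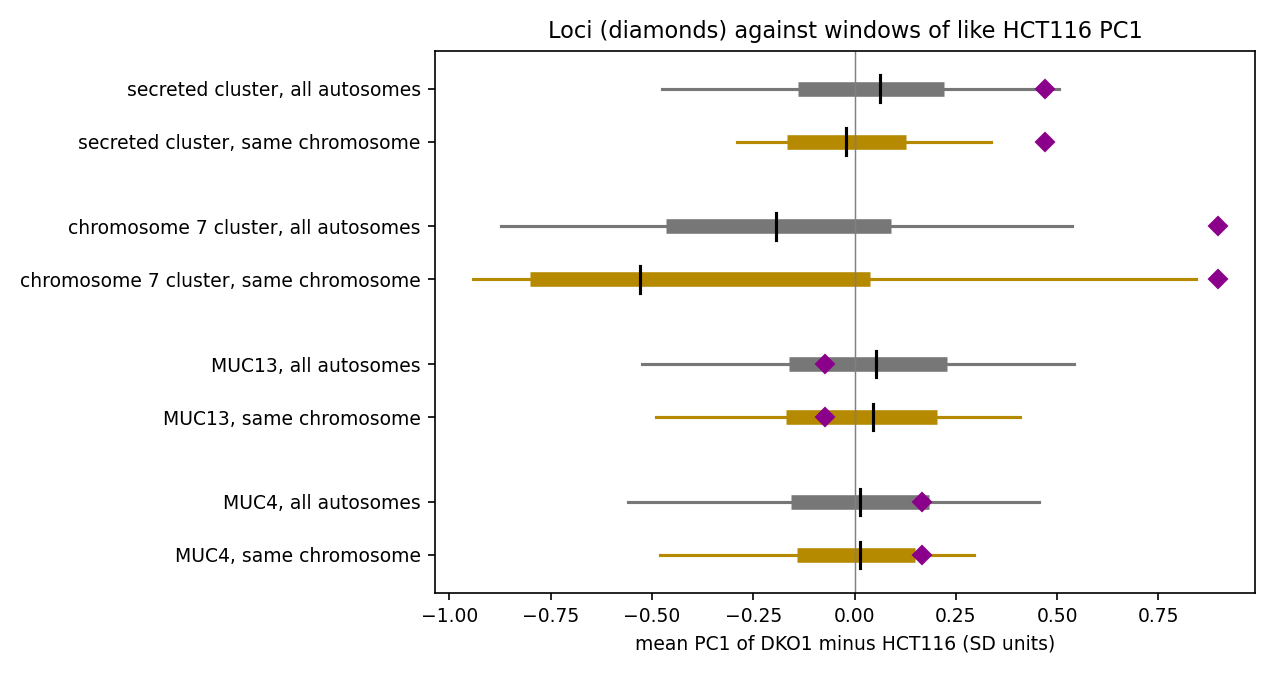
Mean PC1 of DKO1 minus HCT116 (x axis, SD units) of each locus (diamonds) against windows of the same length with an HCT116 mean within 0.1, on all autosomes (grey) and on the same chromosome (ochre); thin lines span the 5th to 95th percentile, thick bars the quartiles and black ticks the median. The chromosome 7 cluster at 0.896 lies beyond the 95th percentile of both sets, the secreted cluster at 0.47 beyond that of chromosome 11 only, and MUC13 and MUC4 lie within both.

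Chromosome 7 differed from chromosomes 3 and 11, the only ones compared, in how its scores changed between the lines. Across its bins the lines correlated with a Pearson r of 0.774, against 0.92 on chromosome 11 and 0.887 on chromosome 3, given as a description over neighbouring bins. Its median score went from 0.264 in HCT116 to -0.177 in DKO1. On this chromosome 27.3% of bins were at least 0.5 higher in DKO1 and 27.7% at least 0.5 lower, against 9.77% and 10.9% on chromosome 11 and 12.7% and 16.1% on chromosome 3. When the median of each chromosome was subtracted, the HCT116 scores of 18 of the 19 bins of the cluster fell below 0, and these bins counted as switched from B to A. The autosomal share of 4.40% given above is for scores without this subtraction. The share with it was not counted, so the 18 bins cannot be judged against one. The label A for the cluster in HCT116 thus depends on where 0 is placed, and its higher score in DKO1 does not.

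A measure that needs no zero is the percentile of a locus among all windows of its length on its own chromosome, which was added after the values had been seen. The chromosome 7 cluster went from above 44.8% of windows in HCT116 to above 81.9% in DKO1. The secreted cluster went from 89.8% to 98.6%, MUC4 from 96.0% to 97.9% and MUC13 from 83.5% to 81.9%. The upper end of the scale was itself wider in DKO1. The 99th percentile of bins went from 1.5 to 1.8 on chromosome 11, from 1.5 to 2.07 on chromosome 7 and from 1.74 to 1.84 on chromosome 3. The part of this widening in the higher scores of the clusters was not tested.

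The higher scores were not confined to the mucin genes. In the bins between 140001 and 900000 before the secreted cluster the mean went from 0.715 to 1.39, and in the 1 Mb after it from 1.27 to 1.6. Over both sides together the difference was 0.481, next to 0.47 in the cluster. In the 1 Mb before the chromosome 7 cluster the mean went from 0.417 to 1.26, and in the 1 Mb after it from 0.806 to 1.39, with a difference of 0.711 over both sides. All 100 of these flanking bins were higher in DKO1. In both lines the chromosome 7 cluster had a lower mean than either of its sides.

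**Figure D3:**
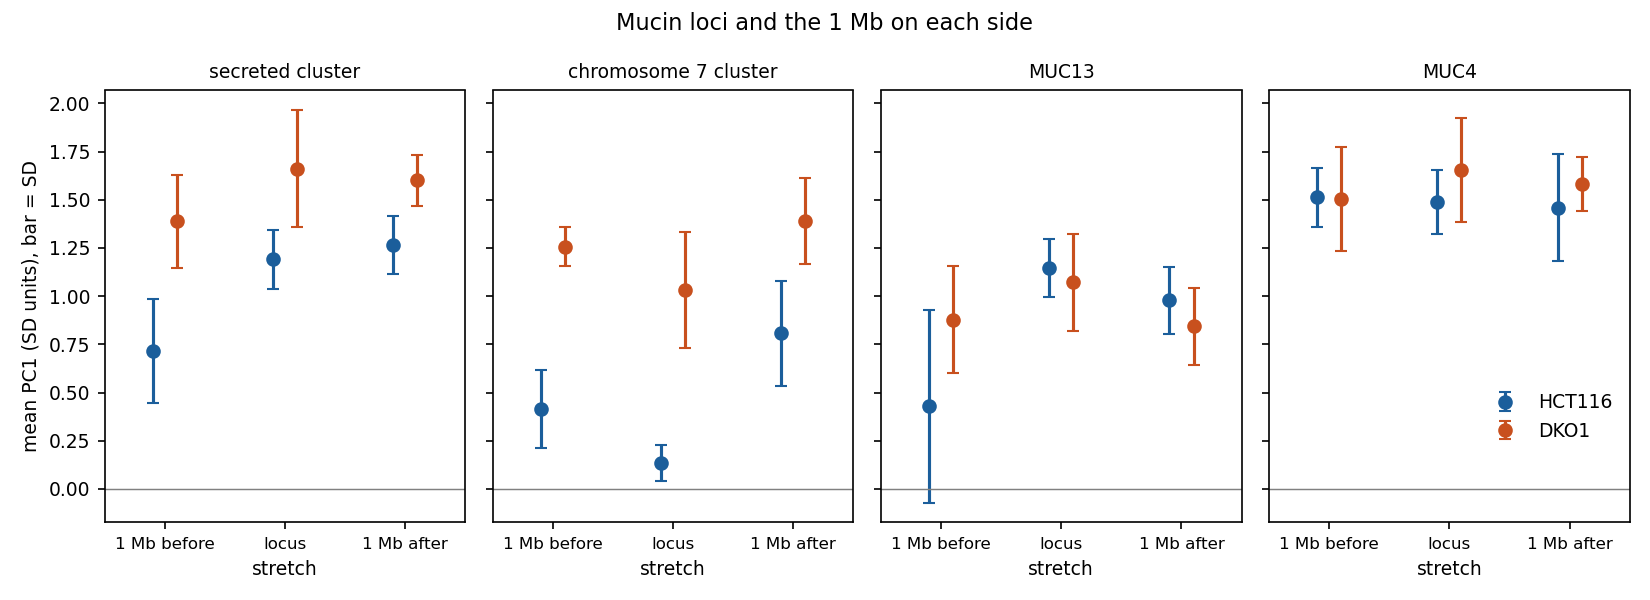
Mean PC1 score (y axis, SD units; bars are the SD over bins) of each mucin locus and of the bins within 1 Mb before and after it (x axis) in HCT116 and DKO1. In the panels of both clusters DKO1 lies above HCT116 in the locus and on both sides, while in the MUC13 and MUC4 panels the lines overlap at the locus.

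Runs of consecutive A bins, bins absent from the tracks aside, were longer in DKO1 around MUC13 and MUC4 and nearly equal around the secreted cluster. The secreted cluster lay in an A interval from 160001 to 4200000 in HCT116 and from 140001 to 4200000 in DKO1. The chromosome 7 cluster lay in A intervals that were divided in HCT116 by the single B bin in MUC3A, the second of them running from 100560001 to 103080000, and in 1 interval of 5400 kb from 97460001 to 102860000 in DKO1. That division rests on 1 bin with a score of -0.00957: after smoothing over 5 bins the chromosome 7 cluster lay in 1 A interval in both lines, of 5680 kb in HCT116 and 5620 kb in DKO1. MUC13 lay near the start of an A interval from 124240001 to 129820000 in HCT116. In DKO1 this interval began at 121120001 and measured 8760 kb in place of 5580 kb. In the 1 Mb before the MUC13 locus 15 of 50 bins went from B to A, where the share on chromosome 3 was 6.38%, so the nearest compartment border lay farther from MUC13 in DKO1 while the mean score of its locus differed by -0.0736. The A interval of MUC4 began at 193300001 in HCT116 and at 192460001 in DKO1 and ended at 197920000 in both.

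Topologically associating domains are stretches that contact themselves more than their surroundings, and the mucin loci had nearly identical domains in both lists. Each list had 8 domains touching the loci with their flanks, in lists of 4289 domains for HCT116 and 1823 for DKO1. At a reciprocal overlap of at least 80%, 7 of the 8 HCT116 domains were matched in DKO1, where 35.9% of autosomal HCT116 domains, and 44.9% of those in compartment A, were matched. From the other side, 7 of the 8 DKO1 domains had a match in the HCT116 list, close to the autosomal share of 84.0%. The same start and end were listed for 6 of the 8, where the autosomal shares were 21.5% of HCT116 and 50.3% of DKO1 domains. The count of 8 is small, and the domains of a cluster are neighbours.

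In the secreted cluster, both lists held a domain from 840001 to 1080000 with MUC6 and the start of MUC2, and one from 1080001 to 1280000 with the rest of MUC2, MUC5AC and most of MUC5B. The boundary between these domains thus falls within the span used for MUC2, and the next one, at 1280000, within that used for MUC5B. The third domain began at 1280001 in both lists and ended at 1640000 in HCT116 and at 1560000 in DKO1, an overlap of 77.8%, which left it as the only unmatched domain. The MUC5AC trough of DKO1 lies inside the middle domain.

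On chromosome 7, a single domain from 100440001 to 100720000 held MUC3A, MUC12 and MUC17 in both lists. Its mean score went from 0.11 to 0.919. Of the 195 other autosomal HCT116 domains with a score within 0.1 of it, 22.1% were matched in DKO1. For its neighbours at 100280001 to 100480000 and 100720001 to 100960000, also listed identically, the shares were 29.9% of 211 and 34.3% of 254. From the DKO1 side most domains of like DKO1 score had a match in HCT116. In the same order, those shares were 83.6% of 220, 85.0% of 226 and 87.4% of 174. The domain before the genes overlapped the domain of the genes by 40 kb in both lists. MUC13 lay in a domain that ended at 124680000 in both lists and began at 124480001 in HCT116 and at 124440001 in DKO1, an overlap of 83.3%. MUC4 lay deep inside a domain of 440 kb from 195280001 to 195720000 in both lists, 180 kb from the nearest boundary.

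The boundaries of these domains were mostly at the same positions. Of the 13 boundaries listed in each line, 12 were found in the other list within 40 kb, where the autosomal shares were 45.2% of HCT116 and 92.5% of DKO1 boundaries. From the DKO1 side the count is close to the autosomal share and does not set these loci apart. At the same position exactly 11 were found, where the autosomal shares were 34.4% and 71.7%. The exceptions at the exact position were the start of the MUC13 domain and the end of the third domain of the secreted cluster.

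Other mucin genes and goblet cell genes had differences of both signs between the lines. Each gene was taken with 100 kb on each side and compared with autosomal windows of 11 bins, of which 11.9% were at least 0.5 higher and 13.4% at least 0.5 lower in DKO1, with a median difference of 0.00425. Of the 9 mucin genes described above, 4 were at least 0.5 higher and 0 at least 0.5 lower, namely MUC6, MUC3A, MUC12 and MUC17, of which the last 3 share bins, and the median difference was 0.439. Which of the secreted genes pass depends on the flank: over the bins of the genes alone MUC6 had a difference of 0.444, MUC2 of 0.707 and MUC5B of 0.517, and 5 of the 9 passed. The genes alone span fewer bins than the windows of 11, and no share was counted at their own widths. Of 8 other mucin genes, 0 were at least 0.5 higher and 2 at least 0.5 lower, and their median difference was -0.157. Their windows lay in A for 5 of the 8 in HCT116 and 4 in DKO1, where 53.9% and 49.3% of autosomal windows did. Of 10 goblet cell genes, 0 were at least 0.5 higher and 4 at least 0.5 lower, with a median of -0.227. In HCT116 10 lay in A and in DKO1 8. The genes of these lists are not all separate: TFF1, TFF2 and TFF3 share bins, as do MUC21 and MUC22, and MUC20 shares bins with MUC4. Against a share of 11.9% of windows, a count of 0 at least 0.5 higher in lists of 8 and 10 genes does not set either list apart. By any amount, 5 of the 8 other mucin genes and 9 of the 10 goblet cell genes were lower in DKO1. For falls of at least 0.5, the counts of 2 and 4 stand beside a share of 13.4% of windows. With so few genes, some sharing bins, these counts are no test.

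Among the other mucins, MUC15, a membrane mucin, had the largest positive difference, from -0.868 to -0.457, with 11 of 11 bins higher, and stayed in compartment B. Its difference of 0.411 was close to that of MUC2, at 0.395, over the same flanks. MUC7, a salivary mucin, had the largest negative difference, from 0.108 to -0.721, and 10 of its 14 bins went from A to B. MUC22, the other listed mucin lower by at least 0.5, went from 0.904 to 0.376 and was named after its value was seen, as were KLF4, ATOH1 and SPDEF. Among the goblet cell genes, ZG16, which encodes a mucus lectin, had the only higher score in DKO1, at 1.25 against 0.953. AGR2, a protein disulfide isomerase of goblet cells, had the largest negative difference, from 0.935 to 0.0466. It lies on chromosome 7, as do the membrane mucins that had higher scores. The transcription factor genes ATOH1, from 0.135 to -0.62, KLF4, from 0.721 to 0.0341, and SPDEF, from 1.43 to 0.819, were the others lower by at least 0.5. When the median of each chromosome was subtracted, 2 goblet cell genes were lower by at least 0.5 in place of 4.

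Of the 18 listed genes, MUC1 had the pair of scores nearest to that of the secreted cluster, at a Euclidean distance of 0.244 over the scores of both lines. For MUC13 it was ZG16, at 0.261. For MUC4 it was its neighbour MUC20, at 0.0497, which shares bins with it, and then MUC1, at 0.281. For the chromosome 7 cluster the nearest was ZG16 at 0.844, so none of the listed genes had a pair of scores close to it.

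**Figure D4:**
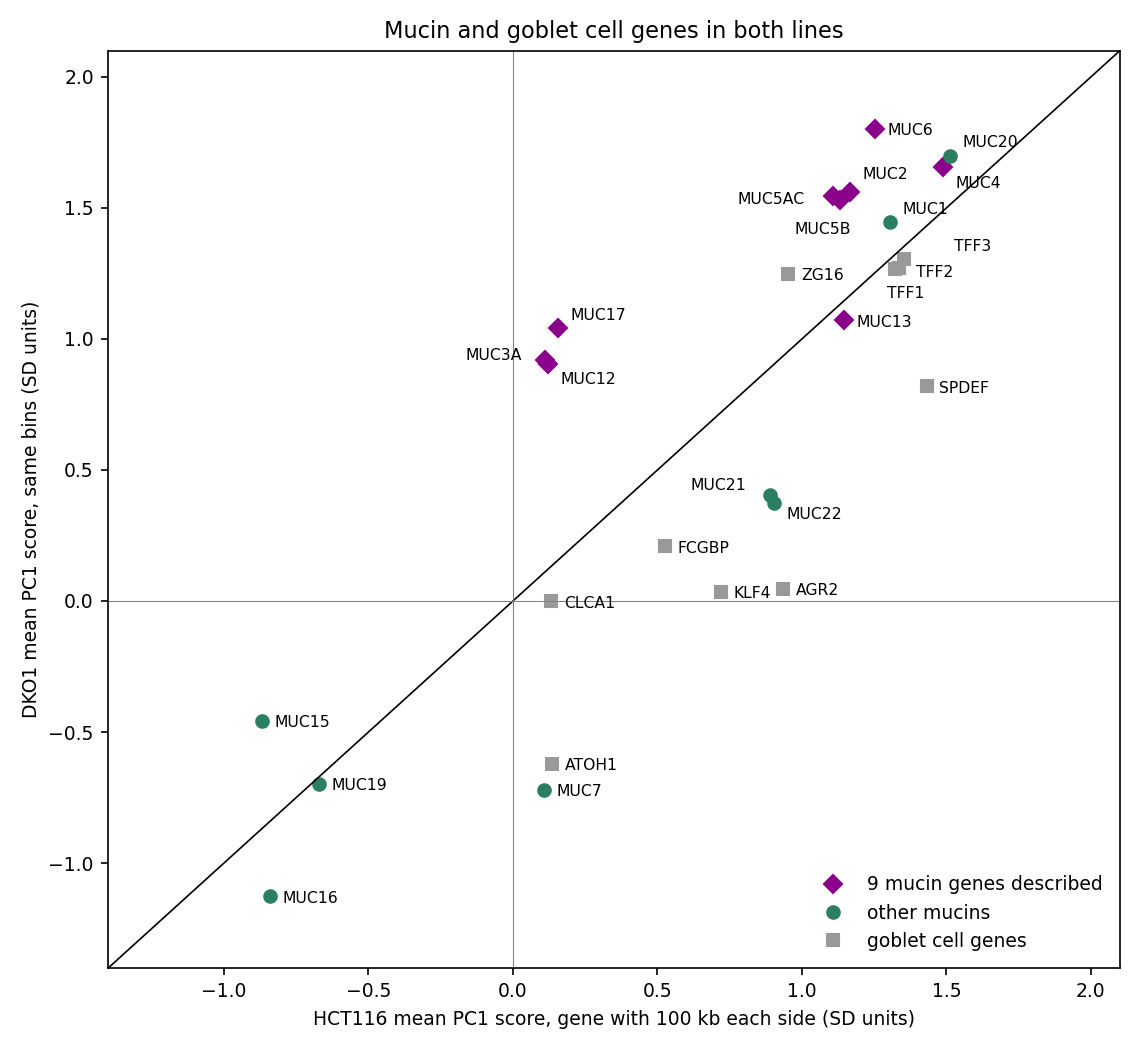
Mean PC1 score of each gene with 100 kb on each side in DKO1 (y axis, SD units) against HCT116 (x axis, SD units); diamonds are the 9 mucin genes described, circles other mucins, squares goblet cell genes, and the diagonal marks equal scores. MUC3A, MUC12 and MUC17 lie far above the diagonal, with scores of 0.11 to 0.155 in HCT116 and 0.906 to 1.04 in DKO1. AGR2, ATOH1, KLF4, SPDEF, MUC7 and MUC22 lie below it by at least 0.5, and other genes lie below it by less.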

How the data were processed

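Compartment scores (PC1) were used as the authors deposited them, as a score per 20 kb bin with a mean of 0 and an SD of 1 per chromosome, per the file headers and values. The domain lists as deposited hold only starts and ends on a 40 kb grid. HiC-Pro, HOMER 4.6 and hg19 (GRCh37) are named in the submitters' processing notes, not tied to a file, and the domain caller is not given in the sources used here. The files hold no read or contact counts, so the depth is unknown. Bins present in both tracks were joined, and each locus was the bins touching its genes with 100 kb on each side. Gene positions on hg19 came from the rule that defines the loci and, within clusters and for the listed genes, from general knowledge to 10 kb, since the RefSeq gene table at hand is on GRCh38. No test was possible with 1 pooled track per line. All member genes and loci are named. Of the other lists, the genes with the largest rise and fall and those nearest to a locus are named. Also named are MUC22, KLF4, ATOH1 and SPDEF, after their values were seen, and genes that share bins. The members and lists were chosen with earlier results of these data known. The functions were tested on simulated data. Python 3.11.15, numpy 2.4.6 and pandas 2.3.3 were used.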

Additional observations from a re-analysis of the deposited data

How the results depend on the processing

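Of 81 alternative values, 60 stayed within the limit set for them, while 15 moved and 6 changed sign. For locus differences the limit was the same sign and the spread over bins, and for counts and lengths 1.5 times. For ranks it was the wider side of a Wilson interval, a confidence range for a share, from windows that do not overlap. For secreted minus membrane it was the same sign and the SD over the 3 membrane loci. The values without the bins of MUC5AC or MUC3A and those of the 1 Mb on each side were added after seeing the data, as were the smoothed A intervals and the count of the 9 mucin genes with no flank. The difference of MUC13, -0.0736, changed sign with no flank (0.109), with a flank of 200 kb (0.0399), after a 10 Mb running mean was subtracted (0.0135) and in the 1 Mb on each side (0.157). The running mean also turned MUC4 to -0.126 and reduced the secreted cluster to 0.171, at loci where the chromosome end cuts it short. Subtracting the median of each chromosome gave 1.34 for the chromosome 7 cluster, 18 bins from B to A in place of 1, a rank of 25.1% for MUC13, 1 other mucin and 1 goblet cell gene at least 0.5 higher in place of 0, and 2 goblet cell genes lower in place of 4. Bins from B to A numbered 0 with a minimum of 0.5 and 0 after smoothing over 5 bins. Ranks on the same chromosome were 96.3% for the secreted cluster, 95.7% for the chromosome 7 cluster and 77.9% for MUC4. MUC4 ranked at 68.2% with windows within 0.2, and MUC13 at 36.6% with windows that do not overlap. Counting each gene once turned secreted minus membrane from 0.141 to -0.0692. The cause of these changes was not tested. No paired analysis was possible because the 3 libraries of each line share 1 pooled track and 1 pooled list, which also means that leaving out a library was not possible. Without read counts, what depth limits is unknown.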
